A study of Mus musculus with 6 samples.

Results

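The genes of mitosis described here are 60 genes for mitotic kinases, kinesins, kinetochore proteins and their partners in chromosome segregation and cytokinesis. They were taken by name, as the rows of the expression table that carry 1 of these gene symbols and no other, with the row of the highest mean where a gene has several. Of the 60 genes, 58 had such a row, among 13725 named genes and 15443 rows in all, and *Ccnb1* and *Sgol1* were not analysed here. RNA came from primary hepatocytes of 3 wildtype C57BL/6 mice (C57BL/6N males in the methods), aged 8 to 12 weeks by the labels. Hepatocytes of each mouse were kept at 1% O2 (hypoxia, 3 arrays) and at 19.5% O2 (normoxia, 3 arrays), for 72 h by the labels. A shorter exposure is given in the publication. Cells of both conditions had been released from the liver with collagenase, attached to collagen and then kept without serum, and, according to the methods, without dexamethasone during the exposure. Such cultures are a model of hepatocytes outside the liver, and the culture can hold remnants of other liver cells. Values are log2 expression after RMA, which corrects background, quantile-normalizes the arrays and summarizes the probes of a transcript.

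The medians of the 6 arrays lay between 7.42 and 7.49, and the hypoxic arrays resembled each other less (r across rows of 0.903 to 0.938) than the normoxic arrays did (0.958 to 0.963). The hypoxia markers *Ndrg1*, *Slc2a1* (a glucose transporter) and *Bnip3* (a mitophagy receptor) rose in all 3 mice, by 1.91, 1.92 and 2.50 on the log2 scale. The hepatocyte label was checked against *Alb*, which encodes albumin, read 13.44, 13.48 and 13.49 under hypoxia, against 13.25, 13.41 and 13.37 under normoxia and did not pass the test between the conditions, while other hepatocyte markers moved and are given with the marker lists. In each list of 3 array values the order is mouse 1, mouse 2 and mouse 3.

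Entry into mitosis is driven by cyclin-dependent kinase 1 (*Cdk1*) with cyclins A and B, together with Polo and Aurora kinases. Kinesins and microtubule-bound proteins then build the spindle, kinetochores attach chromosomes to it, and the spindle checkpoint holds back the anaphase-promoting complex until attachment is complete. Hepatocytes of the adult liver are mostly quiescent and can return to the cell cycle after injury, and the genes of this programme are known to be transcribed together in late G2 and mitosis.

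Promoters of such genes often carry CCAAT boxes, bound by NF-Y, and a cell cycle homology region (CHR, TTTGAA), bound by the MuvB complex. Both motifs were searched on both strands, as CCAAT or ATTGG and as TTTGAA or TTCAAA, whose matches can share end letters and were counted separately, in RefSeq promoters of GRCm38.p6 that span 250 bases before to 50 bases after the annotated start. For 48 of the 58 measured genes a promoter was matched (50 promoters, since *Ect2* and *Prc1* have 2 each). A CCAAT box stood in 72.0% of these 50 promoters and in 37.4% of all 32851 promoters. A CHR stood in 72.0%, against 17.9% of all promoters. Between 40 bases before and 50 bases after the start a CHR stood in 64.0%, against 4.39%. Both motifs were present in 62.0% of the promoters of the mitotic genes and in 6.95% of all promoters. Stretches of 120 bases before to 30 bases after the start are printed for 7 genes, with CCAAT boxes and CHR matches in capitals, to show the shared layout and its exceptions. *Ccnb2* (chr9:70421525-70421674, minus strand), *Cdk1* (chr10:69352883-69353032, minus strand), *Top2a* (chr11:99024160-99024309, minus strand) and *Hmmr* (chr11:40733408-40733557, minus strand) were lower under hypoxia and hold both motifs. *Nusap1* (chr2:119618178-119618327, plus strand) was lower and holds neither in this stretch. *Espl1* (chr15:102296173-102296322, plus strand) holds both motifs and *Cit* (chr5:115845536-115845685, plus strand) holds neither there, and both stood higher under hypoxia without passing the test.
Ccnb2: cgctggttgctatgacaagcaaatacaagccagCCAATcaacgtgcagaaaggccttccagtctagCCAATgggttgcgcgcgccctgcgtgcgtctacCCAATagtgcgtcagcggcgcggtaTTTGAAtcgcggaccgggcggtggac
Cdk1: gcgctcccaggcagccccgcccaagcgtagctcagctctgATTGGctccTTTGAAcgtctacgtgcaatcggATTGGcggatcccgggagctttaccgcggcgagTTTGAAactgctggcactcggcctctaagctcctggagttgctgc
Top2a: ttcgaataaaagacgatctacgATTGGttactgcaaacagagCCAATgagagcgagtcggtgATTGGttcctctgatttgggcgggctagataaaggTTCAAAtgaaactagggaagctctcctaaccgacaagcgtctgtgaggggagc
Hmmr: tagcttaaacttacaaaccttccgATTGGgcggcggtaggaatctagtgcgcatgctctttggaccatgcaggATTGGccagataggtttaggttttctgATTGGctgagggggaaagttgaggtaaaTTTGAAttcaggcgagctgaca
Nusap1: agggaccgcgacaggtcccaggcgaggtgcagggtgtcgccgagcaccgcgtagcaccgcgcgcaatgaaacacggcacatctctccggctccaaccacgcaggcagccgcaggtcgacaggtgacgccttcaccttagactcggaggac
Espl1: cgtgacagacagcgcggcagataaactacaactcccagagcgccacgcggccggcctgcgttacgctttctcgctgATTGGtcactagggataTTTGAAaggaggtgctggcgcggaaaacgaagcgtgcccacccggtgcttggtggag
Cit: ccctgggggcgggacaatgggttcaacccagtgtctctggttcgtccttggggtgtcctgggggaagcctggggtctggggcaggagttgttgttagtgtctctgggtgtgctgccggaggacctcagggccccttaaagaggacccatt
In *Ccnb2* the 3 CCAAT boxes follow each other at 33 and 33 bases, counted between the first letters, and the CHR begins 25 bases after the last of them. In *Cdk1* a spacing of 32 bases separates the CCAAT boxes, and the CHR nearest to the start begins 33 bases after the nearer box. In *Espl1* the CHR begins 17 bases after its only CCAAT box. Both motifs occurred in genes of either response: a CHR was found in 74.4% of the 39 promoters of genes that fell and in 63.6% of the 11 promoters of genes that did not pass, and a CCAAT box in 71.8% and 72.7%. A match describes these letters only.

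**Figure D1:**
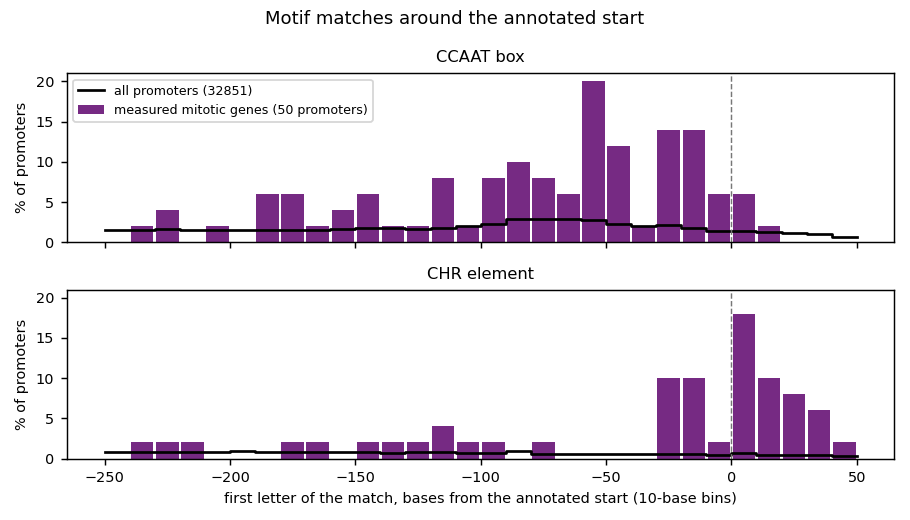
Percent of promoters with a match in each 10-base bin, against the distance of the first letter of the match from the annotated start in bases, for the 50 promoters of measured mitotic genes (bars) and all 32851 promoters (line). CHR matches of the mitotic genes gather near the start. Between 40 bases before and 50 bases after it, 64.0% of their promoters hold one, against 4.39% of all promoters.

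Under hypoxia 46 of the 58 mitotic genes fell, 0 rose and 12 did not pass the test (limma across all 15443 rows, Benjamini-Hochberg adjusted p under 0.05). Of all rows in the table, 23.9% were lower by the same test and 15.5% were higher. The median log2 fold change of the 58 genes was -1.55, beside -0.08 for all named genes. A fall to 50% or less was called for 39 of them, beside 8.24% of all rows, and a fall to 25% or less for 21, beside 0.822%. All 3 hypoxic values lay below all 3 normoxic values for 46 genes, beside 31.9% of rows, and 50 were lower in hypoxic than in normoxic cells of all 3 mice, beside 36.9% of rows. At an unadjusted p under 0.05, 48 genes passed, 47 of them lower and 1, *Cit*, higher, beside 29.1% of all rows lower and 20.7% higher. With the mouse as a block, 44 fell, beside 20.1% of rows, and *Incenp* (adjusted p = 0.06) and *Bub1b* (adjusted p = 0.064) no longer passed. These are bulk RNA measurements, in which fewer cycling cells and less of these transcripts per cell cannot be told apart.

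The table limits how these counts can be read. In every row at least 3 of the 6 arrays reached 5.91, while the next array of a row could fall to 3.12, so that low rows are missing from the table unless 3 arrays were higher. All 3 hypoxic values lay under 5.91 for 25 of the 58 mitotic genes, whereas all 3 normoxic values did for 0 of them. Those 25 genes are in the table through their normoxic arrays and had to differ, so that the counts and the median describe the measured genes and not the 60 as a whole. Without rows of a fixed order, an alternative added after the data were seen, 21 of the 33 other mitotic genes fell and 0 rose, with a median log2 fold change of -0.95, beside 23.3% of rows lower. All 3 hypoxic values lay below all 3 normoxic values for the same number, 21, beside 31.4% of rows. This alternative itself leaves out genes by their low hypoxic values. At least 1 hypoxic value lay under 5.91 for 42 of the 58 genes, and at least 1 normoxic value for 1. Some of the 33 genes thus also needed normoxic arrays to reach the table. The 25 genes were spread over the roles, with 3 of 5 cyclins and their partners, 6 of 11 kinesins, 5 of 6 spindle microtubule proteins and *Foxm1* among them, so that 2 of 5 other kinesins, 2 of 4 other kinetochore genes and 0 of 2 phosphatases fell. The 25 include *Ccna2*, *Ccnb2*, *Cdk1*, *Plk1*, *Pbk*, *Ttk*, *Birc5*, *Ndc80*, *Cenpe*, *Nuf2*, *Kif11*, *Kif18a*, *Kif20a* and *Kif20b*. *Kif22*, *Kif23*, *Hmmr*, *Prc1*, *Nusap1*, *Dlgap5*, *Aspm*, *Racgap1*, *Top2a*, *Mki67* and *Foxm1* complete them. The adjusted p values given below for these genes stand under this limit. So do the counts by role below, which include these genes and stand beside 23.9% of all rows lower. Over all rows, all 3 values lay under 5.91 for 165 rows in hypoxia and 100 in normoxia. All 3 hypoxic values of 28 mitotic genes were among the lowest 5% of their arrays, which is the case for 1.37% of all rows, and each of the 28 was called lower, a trait of 5.65% of the rows called lower. For these genes the hypoxic level stood near the low end of the arrays. With 3 arrays a condition, the precision of each value is limited.

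**Figure D2:**
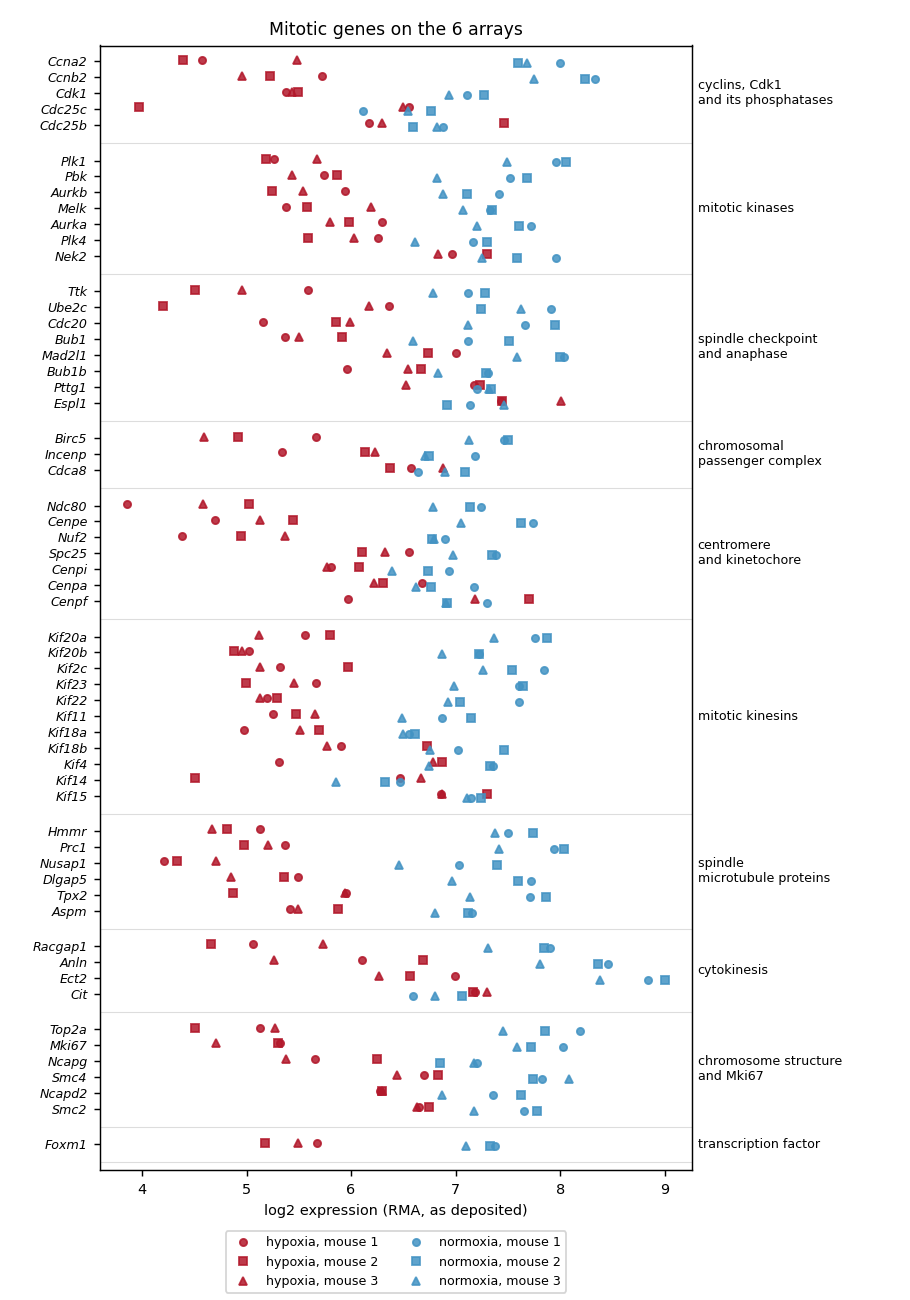
Log2 expression (RMA) of the 58 measured mitotic genes on each array, grouped by role, with hypoxic arrays in red and normoxic arrays in blue and a symbol for each mouse. For 46 genes the 3 red symbols lie left of the 3 blue ones, an order that the bound of the table fixes for 25 of them, and for *Cit* they lie right of them.

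Among cyclins, *Cdk1* and the phosphatases that activate it, 3 of 5 measured genes fell. *Ccna2*, the cyclin that acts in S phase and G2, read 4.58, 4.39 and 5.48 under hypoxia, against 8.00, 7.60 and 7.68 under normoxia, a fall to 13% of the normoxic level (log2 fold change -2.94 ± 0.29 SE, adjusted p = 0.000832). *Cdk1* itself read 5.37, 5.49 and 5.43 under hypoxia, against 7.11, 7.27 and 6.93 under normoxia, a fall to 31.3% (log2 fold change -1.67 ± 0.14 SE, adjusted p = 0.000538). The 3 hypoxic values of *Cdk1* lay within a narrow band, with a standard deviation of 0.06 against 0.17. *Ccnb2*, a mitotic cyclin, fell to 14.3% (log2 fold change -2.81 ± 0.24 SE, adjusted p = 0.000605). The phosphatases *Cdc25c* and *Cdc25b*, which remove the inhibitory phosphates from CDK1, did not pass. *Cdc25c* read 6.55, 3.97 and 6.49 under hypoxia, against 6.11, 6.77 and 6.54 under normoxia (log2 fold change -0.80 ± 0.66 SE, adjusted p = 0.364), where only the hypoxic array of mouse 2 was low and the other arrays overlapped. *Cdc25b* read 6.17, 7.46 and 6.30 under hypoxia, against 6.88, 6.59 and 6.82 under normoxia (log2 fold change -0.12 ± 0.33 SE, adjusted p = 0.801), and there the hypoxic array of mouse 2 was the highest of the 6. Without that array the estimate for *Cdc25c* was 0.05, and without the hypoxic array of mouse 1 the estimate for *Cdc25b* was 0.12, so that neither gene has a settled direction.

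Of 7 mitotic kinases, 6 fell. *Plk1*, the Polo kinase of mitotic entry and spindle assembly, read 5.26, 5.18 and 5.67 under hypoxia, against 7.96, 8.06 and 7.49 under normoxia, a fall to 18.1% (log2 fold change -2.46 ± 0.21 SE, adjusted p = 0.000557). *Aurka*, the Aurora kinase of centrosomes and spindle poles, read 6.30, 5.98 and 5.80 under hypoxia, against 7.72, 7.61 and 7.20 under normoxia (log2 fold change -1.48 ± 0.20 SE, adjusted p = 0.00201). *Aurkb*, the Aurora kinase of the chromosomal passenger complex, read 5.95, 5.24 and 5.54 under hypoxia, against 7.42, 7.11 and 6.88 under normoxia (log2 fold change -1.56 ± 0.22 SE, adjusted p = 0.00254). For all 3 kinases the lowest normoxic value belonged to mouse 3. *Pbk* and *Melk*, a pair of kinases expressed in proliferating cells, fell by 1.66 and 1.54 on the log2 scale. *Plk4*, which starts centriole duplication, read 6.26, 5.59 and 6.03 under hypoxia, against 7.16, 7.30 and 6.61 under normoxia (log2 fold change -1.07 ± 0.24 SE, adjusted p = 0.0132), but its adjusted p was 0.0511 without the normoxic array of mouse 1, 0.0517 without that of mouse 2 and 0.11 without mouse 2 as a whole. *Nek2*, a NIMA kinase that separates centrosomes, read 6.97, 7.30 and 6.84 under hypoxia, against 7.96, 7.59 and 7.25 under normoxia (log2 fold change -0.57 ± 0.22 SE, adjusted p = 0.0747). It was lower in all 3 mice, the groups overlapped through hypoxic mouse 2 and normoxic mouse 3, and without that normoxic array it passed (adjusted p = 0.0485).

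In the spindle checkpoint and anaphase group 6 of 8 genes fell. *Ttk* (Mps1), the kinase that starts checkpoint signalling, read 5.59, 4.51 and 4.96 under hypoxia, against 7.11, 7.28 and 6.78 under normoxia, a fall to 24.3% (log2 fold change -2.04 ± 0.28 SE, adjusted p = 0.00225). *Bub1*, the checkpoint kinase of the kinetochore, fell by 1.48 on the log2 scale, and *Cdc20*, the activator of the anaphase-promoting complex that the checkpoint holds back, by 1.91. *Ube2c*, the ubiquitin-conjugating enzyme of that complex, read 6.36, 4.20 and 6.17 under hypoxia, against 7.91, 7.24 and 7.63 under normoxia (log2 fold change -2.02 ± 0.55 SE, adjusted p = 0.0242). Its hypoxic values scattered, with mouse 2 far under the other mice, and dropping any of the 3 normoxic arrays or mouse 3 gave an adjusted p between 0.0513 and 0.0936. The effector *Mad2l1* had 2 rows that both fell, by 1.18 and by 1.45, and the row with the higher mean missed the threshold without mouse 2 (adjusted p = 0.0644). *Bub1b* (BubR1), which binds and inhibits CDC20, read 5.96, 6.67 and 6.54 under hypoxia, against 7.31, 7.29 and 6.83 under normoxia (log2 fold change -0.75 ± 0.23 SE, adjusted p = 0.0373). The groups did not overlap, but *Bub1b* missed the threshold in the blocked fit and without mouse 1, mouse 2 or mouse 3 or without hypoxic mouse 1 or 3 or normoxic mouse 1 or 2, with adjusted p up to 0.143. *Pttg1* (securin), the inhibitor of separase, read 7.18, 7.23 and 6.53 under hypoxia, against 7.21, 7.34 and 7.32 under normoxia (log2 fold change -0.31 ± 0.21 SE, adjusted p = 0.267), where hypoxic mouse 3 gave the low value and the other arrays were close together. *Espl1* (separase), the protease that cuts cohesin at anaphase, read 7.43, 7.44 and 8.01 under hypoxia, against 7.14, 6.92 and 7.46 under normoxia (log2 fold change 0.46 ± 0.22 SE, adjusted p = 0.133). It was higher in hypoxic than in normoxic cells of all 3 mice, and the groups overlapped through normoxic mouse 3.

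Of the chromosomal passenger complex, which corrects wrong attachments, 2 of 3 measured subunits besides *Aurkb* fell. *Birc5* (survivin) read 5.66, 4.92 and 4.59 under hypoxia, against 7.47, 7.50 and 7.13 under normoxia, a fall to 20.2% (log2 fold change -2.31 ± 0.28 SE, adjusted p = 0.00145). The scaffold *Incenp* read 5.34, 6.13 and 6.23 under hypoxia, against 7.18, 6.75 and 6.71 under normoxia (log2 fold change -0.98 ± 0.26 SE, adjusted p = 0.0238), with the largest difference in mouse 1, and it missed the threshold in the blocked fit, without any of the 3 normoxic arrays, without mouse 2 and without mouse 3 (adjusted p up to 0.0852). *Cdca8* (borealin) read 6.57, 6.37 and 6.88 under hypoxia, against 6.64, 7.09 and 6.90 under normoxia (log2 fold change -0.27 ± 0.19 SE, adjusted p = 0.286), with groups that overlapped.

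At the centromere and kinetochore 5 of 7 measured genes fell. *Ndc80*, the microtubule-binding subunit of the outer kinetochore, read 3.86, 5.03 and 4.58 under hypoxia, against 7.24, 7.13 and 6.79 under normoxia, a fall to 16.9% (log2 fold change -2.57 ± 0.30 SE, adjusted p = 0.0013). Its partner *Nuf2* fell by 1.92 on the log2 scale and *Spc25*, a further subunit of the same complex, by 0.91. *Spc24*, the other subunit, is in the separate list of mitotic genes and stood higher under hypoxia in all 3 mice without passing (log2 fold change 0.52, adjusted p = 0.0874). The kinetochore motor *Cenpe* fell by 2.38. *Cenpi*, of the inner kinetochore, fell by 0.80. *Spc25* missed the threshold without mouse 2 (adjusted p = 0.0899), and *Cenpi* did so without mouse 1 (0.0603) or mouse 2 (0.0721). *Cenpa*, the histone H3 variant that marks centromeres, read 6.68, 6.31 and 6.22 under hypoxia, against 7.18, 6.76 and 6.62 under normoxia (log2 fold change -0.45 ± 0.20 SE, adjusted p = 0.111). It was lower in all 3 mice by similar amounts, the groups overlapped through normoxic mouse 3 and hypoxic mouse 1, and without that hypoxic array it passed (adjusted p = 0.0465). *Cenpf*, a large protein of the outer kinetochore, read 5.97, 7.70 and 7.19 under hypoxia, against 7.30, 6.91 and 6.91 under normoxia (log2 fold change -0.09 ± 0.41 SE, adjusted p = 0.882), with mouse 1 lower under hypoxia and mice 2 and 3 higher.

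**Figure D3:**
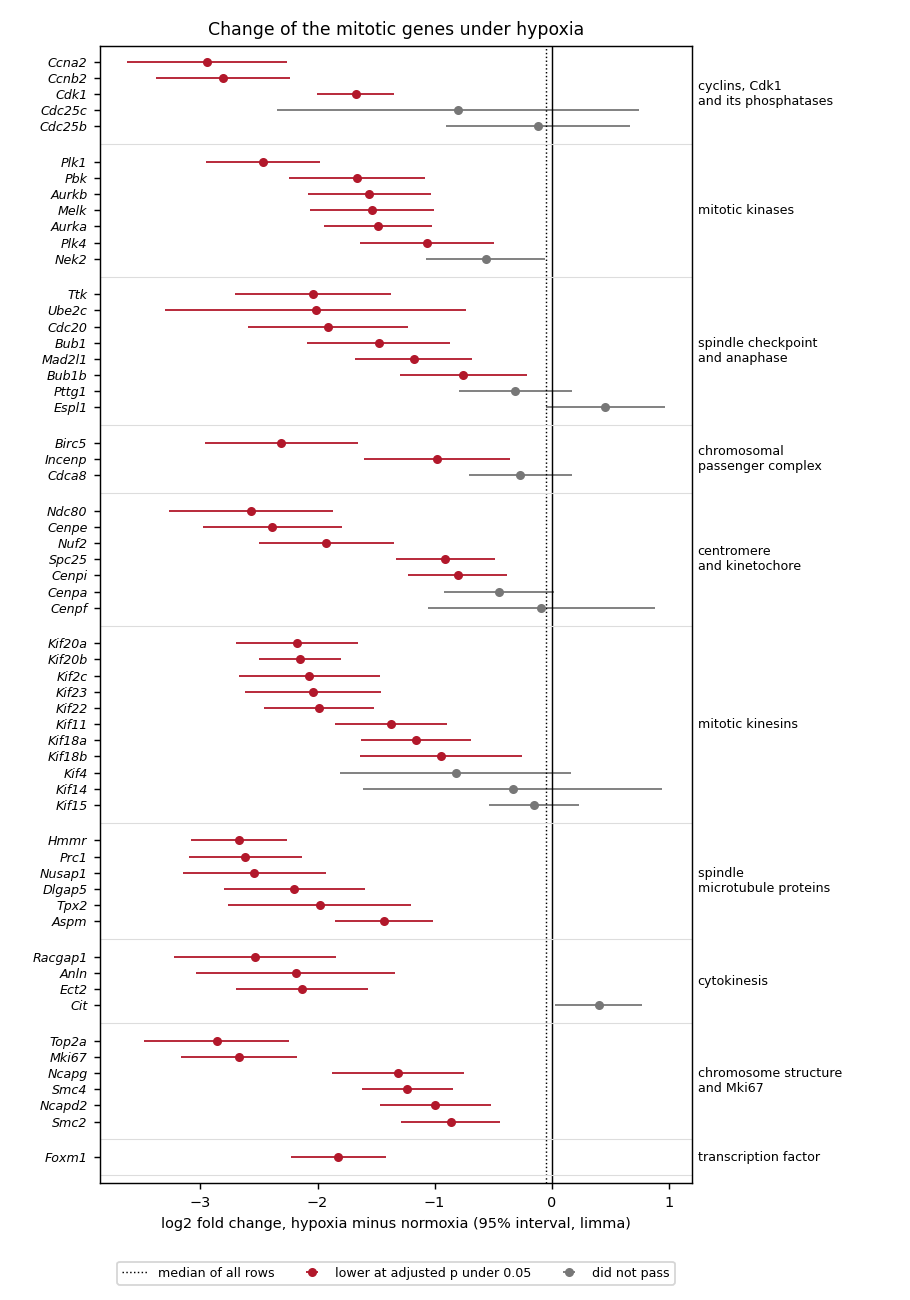
Log2 fold change (hypoxia minus normoxia) of the 58 measured mitotic genes with 95% intervals from limma, grouped by role, with genes called lower in red and genes that did not pass in grey. The largest fall is *Ccna2* at -2.94, and *Espl1* and *Cit* are the 2 estimates above 0.

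Among the mitotic kinesins 8 of 11 fell, 6 of them with an order that the bound of the table fixes. *Kif20a*, a motor of the central spindle, read 5.56, 5.80 and 5.12 under hypoxia, against 7.76, 7.88 and 7.37 under normoxia, a fall to 22.2% (log2 fold change -2.17 ± 0.22 SE, adjusted p = 0.000873). *Kif20b*, *Kif23* and *Kif22* fell by 2.15, 2.04 and 1.99 on the log2 scale, of which *Kif23* bundles microtubules of the midzone with *Racgap1* and *Kif22* is a motor of chromosome arms. *Kif2c*, a kinesin that takes microtubule ends apart, fell by 2.07, *Kif11* (Eg5), which pushes spindle poles apart, by 1.37, and *Kif18a*, which damps chromosome movement, by 1.16. *Kif18b* fell by 0.95 (adjusted p = 0.039), and it missed the threshold without any single array other than hypoxic mouse 2 and without mouse 1 or mouse 3, with adjusted p up to 0.137. The other three kinesins did not pass. *Kif4*, the chromokinesin of the central spindle, read 5.31, 6.87 and 6.78 under hypoxia, against 7.36, 7.33 and 6.75 under normoxia (log2 fold change -0.82 ± 0.42 SE, adjusted p = 0.158), where the low value was hypoxic mouse 1. *Kif14*, a cytokinesis motor, read 6.47, 4.51 and 6.67 under hypoxia, against 6.47, 6.32 and 5.85 under normoxia (log2 fold change -0.33 ± 0.54 SE, adjusted p = 0.654), where the low value was hypoxic mouse 2, and without it the estimate was 0.35. *Kif15*, which acts beside *Kif11* on the spindle, read 6.86, 7.30 and 6.87 under hypoxia, against 7.14, 7.24 and 7.11 under normoxia (log2 fold change -0.15 ± 0.16 SE, adjusted p = 0.485), with 6 values in a narrow range.

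All 6 spindle microtubule proteins fell, with a median log2 fold change of -2.37. *Hmmr*, a microtubule-binding protein of spindle poles, read 5.13, 4.81 and 4.67 under hypoxia, against 7.50, 7.74 and 7.38 under normoxia, a fall to 15.7% (log2 fold change -2.67 ± 0.17 SE, adjusted p = 0.000293). *Prc1*, which bundles antiparallel microtubules of the midzone, fell to 16.3%, *Nusap1*, a spindle-associated microtubule protein, to 17.2%, *Dlgap5* (HURP), which stabilizes kinetochore fibres, to 21.8% and *Tpx2*, the activator of Aurora A, to 25.3%. The smallest fall in this group was that of the spindle pole protein *Aspm*, which read 5.41, 5.88 and 5.49 under hypoxia, against 7.16, 7.11 and 6.80 under normoxia (log2 fold change -1.43 ± 0.18 SE, adjusted p = 0.00161). For 5 of these 6 genes, all but *Tpx2*, the order of the groups is fixed by the bound of the table.

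Of the cytokinesis genes 3 of 4 fell. *Racgap1*, the GTPase-activating subunit of centralspindlin, read 5.06, 4.66 and 5.73 under hypoxia, against 7.90, 7.85 and 7.31 under normoxia, a fall to 17.3% (log2 fold change -2.53 ± 0.30 SE, adjusted p = 0.00132). *Ect2*, the exchange factor that activates RhoA at the cleavage site, fell to 22.8%, and the actin-binding scaffold *Anln* (anillin) to 22%. *Cit*, which encodes citron kinase of the midbody, read 7.19, 7.16 and 7.30 under hypoxia, against 6.59, 7.06 and 6.81 under normoxia (log2 fold change 0.40 ± 0.16 SE, adjusted p = 0.0801). All 3 hypoxic values of *Cit* stood above the normoxic ones, an order found in 22.4% of all rows.

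All 6 genes of chromosome structure, *Mki67* included, fell. *Mki67*, the Ki-67 protein of the surface of mitotic chromosomes and a widely used marker of proliferation, read 5.32, 5.30 and 4.71 under hypoxia, against 8.03, 7.72 and 7.59 under normoxia, a fall to 15.7% (log2 fold change -2.67 ± 0.21 SE, adjusted p = 0.000473). *Top2a*, the topoisomerase that disentangles sister chromatids, read 5.13, 4.51 and 5.27 under hypoxia, against 8.19, 7.85 and 7.45 under normoxia, a fall to 13.8% (log2 fold change -2.86 ± 0.26 SE, adjusted p = 0.000706). Both were lower by more than 2 on the log2 scale in each mouse, and the bound of the table fixes the order of both. The 4 condensin genes of the group fell, *Ncapg* by 1.31, *Smc4* by 1.23, *Ncapd2* by 1.00 and *Smc2* by 0.86. Other condensin genes, of the separate list, did not pass, with log2 fold changes of -0.53 for *Ncaph* (adjusted p = 0.0952), -0.30 for *Ncapd3* (0.23), 0.08 for *Ncaph2* (0.646) and -0.0003 for *Ncapg2* (0.999). *Smc2* read 6.65, 6.75 and 6.63 under hypoxia, against 7.66, 7.77 and 7.18 under normoxia (log2 fold change -0.86 ± 0.18 SE, adjusted p = 0.00943), with hypoxic values close together and normoxic mouse 3 nearest to them. Without mouse 2, *Smc2* (adjusted p = 0.0811) and *Ncapd2* (0.0734) missed the threshold, *Smc2* also did so without mouse 1 (0.0519), and *Ncapg* did so without mouse 3 (0.0562). *Foxm1*, the forkhead transcription factor that joins MuvB and B-Myb at promoters of G2 and mitotic genes, read 5.67, 5.17 and 5.49 under hypoxia, against 7.38, 7.33 and 7.10 under normoxia, a fall to 28.3% (log2 fold change -1.82 ± 0.17 SE, adjusted p = 0.000739).

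The mean over the 58 genes was 5.79, 5.77 and 5.81 on the hypoxic arrays, against 7.43, 7.41 and 7.06 on the normoxic arrays of mouse 1, mouse 2 and mouse 3. The hypoxic means were thus nearly alike, and normoxic mouse 3 was lower than the other normoxic arrays. That array was the lowest of the 3 normoxic arrays for 81.0% of the 58 genes, compared with 32.4% of all rows and 37% of rows called lower. The median difference between hypoxic and normoxic cells was -1.74 in mouse 1, -1.76 in mouse 2 and -1.36 in mouse 3. No such order was seen among the hypoxic arrays, where the lowest value of a gene came from mouse 1 for 19 genes, from mouse 2 for 18 and from mouse 3 for 21. All 3 hypoxic values of 28 of the 58 genes were among the lowest 5% of their arrays, so that an order of the mice may not show there. The hypoxic standard deviation exceeded the normoxic one for 65.5% of the genes, close to the 68.6% of all rows.

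**Figure D4:**
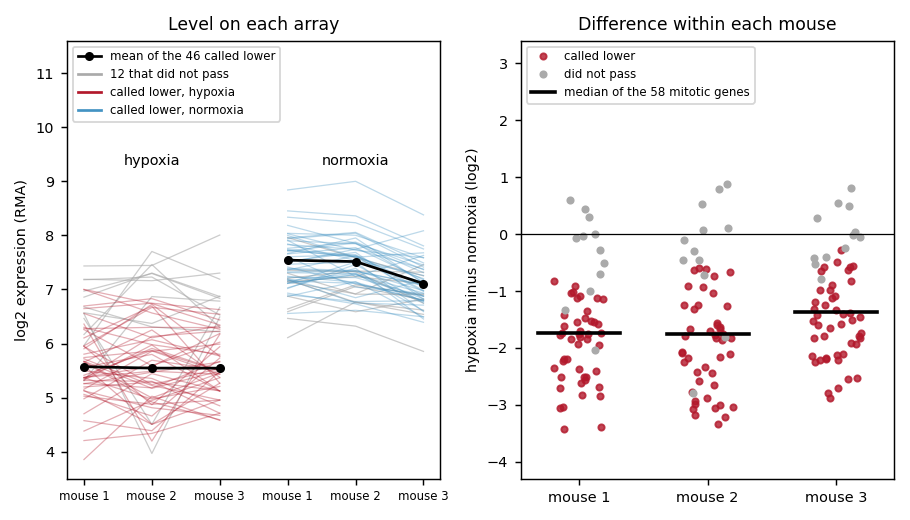
Left, log2 expression of each measured mitotic gene on the 3 hypoxic and 3 normoxic arrays (thin lines join values of a gene within a condition, black points are means of the 46 genes called lower). Right, log2 difference between hypoxic and normoxic cells within each mouse, with medians of the 58 genes as bars at -1.74, -1.76 and -1.36.

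Further genes with a known part in mitosis were taken from a separate list, of which 52 were measured. Of these 31 fell and 0 rose (59.6% lower, beside 25% of named genes), with a median log2 fold change of -0.86. All 3 hypoxic values lay under the bound of 5.91 for 10 of the 31, *Psrc1* and *Zwilch* included, whose order was thus fixed, and of the other 42 genes 21 fell (50%, beside 24.4% of named genes), with a median of -0.52. *Psrc1*, a regulator of spindle microtubules, read 5.82, 5.71 and 5.54 under hypoxia, against 8.02, 7.92 and 8.08 under normoxia (log2 fold change -2.31 ± 0.14 SE, adjusted p = 0.000221). *Zwilch*, of the complex that recruits dynein to kinetochores, read 4.67, 3.92 and 4.41 under hypoxia, against 6.62, 7.11 and 6.60 under normoxia (log2 fold change -2.44 ± 0.24 SE, adjusted p = 0.000749), and the spindle proteins *Ckap2l* and *Ckap2* also fell (log2 fold changes -2.01 and -1.89). The DNA replication and S phase list moved in both directions, with 7 of 36 measured genes lower and 5 higher, or 19.4% and 13.9% beside 25% and 13.9% of named genes, and a median of -0.23. *Gins4*, *Pole* and *Prim1*, of the replicative helicase, a DNA polymerase and primase, fell by 1.18, 0.78 and 0.85, and *Rrm2*, a ribonucleotide reductase subunit, by 0.71. Genes of that list that rose were *Mcm2* (helicase) by 0.84, *Pcna* (sliding clamp) by 0.81, *Cdt1* (helicase loading) by 0.72, *Cdc6* (helicase loading) by 0.49 and *Pold1* (a DNA polymerase) by 0.48. *Mcm7*, of the same helicase as *Mcm2*, fell by 0.62. *Pcna* read 9.64, 9.73 and 9.51 under hypoxia, against 8.60, 9.03 and 8.81 under normoxia, so that its order across the groups was opposite to that of *Mki67*. The bound of the table fixes the order of *Mki67*. *Mcm7*, *Pold1* and *Cdc6* did not pass with the mouse as a block.

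Among 23 measured genes of a list of regulators of mitotic gene promoters, 9 fell and 2 rose (39.1% lower, beside 25% of named genes). *Mybl2* (B-Myb), the partner of MuvB in S phase and G2, read 5.32, 5.74 and 5.55 under hypoxia, against 7.41, 7.53 and 6.96 under normoxia (log2 fold change -1.76 ± 0.20 SE, adjusted p = 0.00116), with hypoxic values under the bound of the table. *Rbl1* (p107), a pocket protein of the repressing DREAM complex, read 6.08, 6.05 and 6.14 under hypoxia, against 7.18, 7.07 and 6.93 under normoxia (log2 fold change -0.97 ± 0.13 SE, adjusted p = 0.00202), *Lin9*, a MuvB subunit, fell by 1.11, and *Nfya*, the DNA-binding subunit of NF-Y, by 0.82. The list also holds the CDK inhibitor *Cdkn1a* (p21), 1 of the 9, which fell by 0.44. *Lin52*, another MuvB subunit, and *Nfyc*, another NF-Y subunit, rose by 0.44 and 0.38. These last 3 genes did not pass with the mouse as a block.

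**Figure D5:**
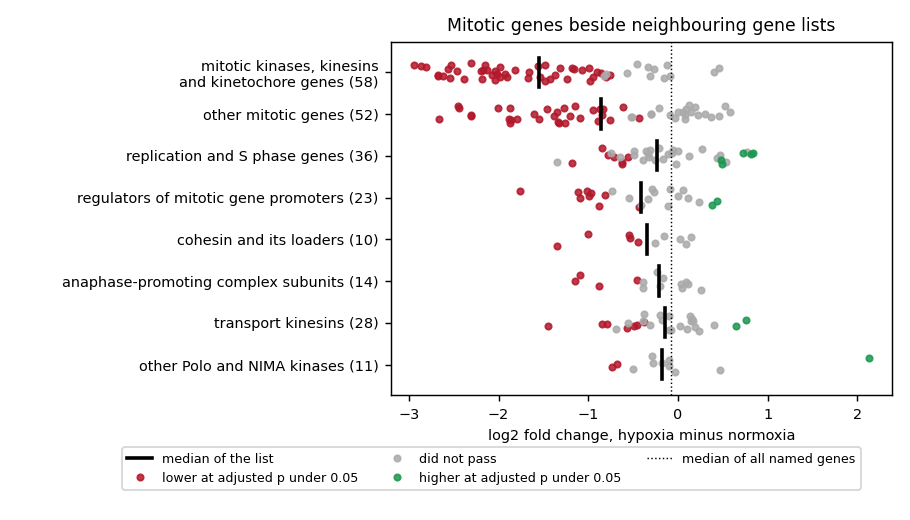
Log2 fold change (hypoxia minus normoxia) of every measured gene in the mitotic group and in 7 neighbouring lists, coloured by call, with the median of each list as a bar and the median of all named genes, -0.08, as a dotted line. The mitotic genes have a median of -1.55 and the other mitotic genes of -0.86, while the replication list spreads on both sides of 0.

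Markers of hepatocytes and other liver cells were read beside these falls, and their counts stand beside 25% of named genes lower and 13.9% higher. Of 14 measured hepatocyte markers 3 fell and 5 rose (21.4% and 35.7%), and their mean lay between 10.38 and 10.55 on hypoxic arrays, against 9.97 and 10.22 on normoxic arrays. *Cyp2e1*, a cytochrome P450, and *Asgr1*, a receptor for desialylated glycoproteins, rose by 3.48 and 2.40 on the log2 scale. *Hnf4a*, a transcription factor of hepatocyte identity, fell to 48.9% (log2 fold change -1.03, adjusted p = 0.0016). *Pck1*, an enzyme of gluconeogenesis, fell by 1.42 (adjusted p = 0.0492) and the apolipoprotein gene *Apob* by 0.39 (adjusted p = 0.0385, or 0.0816 with the mouse as a block).

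Of 11 sinusoidal endothelial markers 1 fell and 7 rose (9.09% and 63.6%), with means of 7.47 to 7.60 under hypoxia, against 7.06 to 7.14 under normoxia. *Pecam1* and *Stab2* rose by 1.16 and 0.78, *Oit3* fell by 0.54 (adjusted p = 0.0452, or 0.0643 with the mouse as a block), and *Kdr* had a log2 fold change of -0.40 and did not pass (adjusted p = 0.0765). Cholangiocyte markers had 2 of 6 measured genes lower and 1 higher (33.3% and 16.7%), with means of 7.63 to 8.31 under hypoxia, against 8.08 to 8.55 under normoxia. *Spp1* and *Sox9* of that list fell by 2.81 and 1.14, and *Spp1* read 8.51, 8.28 and 8.18 under hypoxia, against 11.47, 11.30 and 10.64 under normoxia. Normoxic mouse 3 was the lowest normoxic array for 3 of the 6 markers, *Spp1* included, beside 32.4% of all rows, and the highest for *Sox9*. The keratin gene *Krt7* rose by 0.82 (adjusted p = 0.0386, or 0.0873 with the mouse as a block), and *Krt19* stood higher in all 3 mice without passing (log2 fold change 1.18, adjusted p = 0.0707), though it passed in the blocked fit (adjusted p = 0.00914).

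Kupffer cell and macrophage markers had 3 of 8 genes lower and 2 higher (37.5% and 25%), and their means overlapped (7.27 to 7.50 under hypoxia, against 7.43 to 7.54 under normoxia). *C1qb* and *C1qa*, of the complement component C1q, fell by 1.64 and 0.54 and the receptor gene *Cd14* by 0.88, whereas *Cd68* rose by 1.35 and *Marco* by 0.57. The bound of the table fixes the order of *C1qb*, and of the other 7 genes 2 fell (28.6%, beside 24.4% of named genes). *Marco* did not pass with the mouse as a block. For stellate cells and fibroblasts 1 of 10 genes fell, *Acta2* by 1.11, and 1 rose, *Reln* by 1.70 (7.02 to 7.32 under hypoxia, against 6.81 to 6.99 under normoxia). For lymphocytes 0 of 3 fell and 1, *Nkg7*, rose by 0.72 (7.86 to 8.35 under hypoxia, against 7.65 to 7.89 under normoxia). An array gives no true zero, so that no marker could be called absent. The part of other cells in the falls of the mitotic genes was not tested.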

How the data were processed

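RNA from the 6 cultures was read on Affymetrix Mouse Gene ST arrays. Values deposited by the authors are RMA expression on a log2 scale, computed in oligo (versions are not given in the sources used here), and these log2 values were used unchanged. The rule that chose the 15443 rows is not stated. Symbols came from the platform annotation, and 1276 were updated through RefSeq. Differences were tested in R 4.3.3 by lmFit and eBayes of limma 3.58.1, with condition as the only term. The methods name a linear model with eBayes and state no further term. All rows entered the Benjamini-Hochberg adjustment, and the threshold was 0.05. Tests were checked on simulated data. Exact permutation tests were not used, since 0.1 is the smallest two-sided p that 3 against 3 arrays allow.

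The same mouse stands in both conditions by the labels, so the arrays are paired. Deviations from group means correlated at -0.11, 0.02 and 0.1 in mouse 1, 2 and 3. The block by mouse was an alternative, beside other moderation, filters, scalings and left-out arrays or mice, and 1 more was added after the data were seen.

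The genes and lists were chosen with earlier results of these data known. Values per array are given for the largest and smallest change of each role, for genes that did not pass and for *Mki67*, *Top2a*, *Cdk1*, *Aurka*, *Aurkb*, *Plk1* and *Foxm1*, and for some others whose calls were lost. Of other lists, up to 4 genes with the smallest adjusted p and those against the majority are named. Genes beyond this rule (*Alb*, *Pole*, *Prim1*, *Rrm2*, *Mcm7*, *Cdkn1a*, *Wapl*, *Krt19*, *Kdr*, *Spc24* and 4 condensin genes) were named after their values were seen.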

Additional observations from a re-analysis of the deposited data

How the results depend on the processing

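In 18 alternatives, 35 of the 46 lower genes kept their call wherever they were tested and 11 lost it at least once. All 11 came from the 21 lower genes whose order the bound of the table does not fix. The other 25 lower genes, all kept, are those of fixed order. None of the 46 changed sign, but most alternatives could not turn it. All 3 hypoxic values of each lay below all 3 normoxic values, so leaving out arrays or mice keeps the sign. The block and other moderation leave the estimate unchanged. With the mouse as a block 44 genes fell, and 43 with trend and robust moderation added. Apart from *Incenp*, *Bub1b* and, with that moderation, *Cenpi* (adjusted p = 0.0627), the block changed no call among these 46. Leaving out arrays or mice gave 38 to 46 lower genes and 0 higher ones, with medians of -1.72 to -1.48. Leaving out the dimmest 25% of rows left 11 of the 58 genes, with a median of -0.57, and 5 of the 11 were lower. By construction this filter removes genes whose own fall lowers their mean. Without the rows whose order the bound of the table fixes, an alternative added after the data were seen, 21 of the 33 remaining mitotic genes were lower, with a median of -0.95. Without an array or a mouse, 1306 to 4131 rows of the table were lower and 852 to 3114 higher, both fewest without mouse 2. Without both arrays of mouse 2 the mitotic genes gave 38 lower calls, the 25 genes of fixed order included.

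Signs turned for 4 genes that did not pass. With arrays or mice left out, the estimate ran from -0.62 (without mouse 2) to 0.17 (without mouse 1) for *Cdc25b* and from -1.42 (without mouse 1) to 0.20 (without mouse 2) for *Cdc25c*. It ran from -0.53 (without mouse 2) to 0.53 (without mouse 1) for *Cenpf* and from -0.91 (without mouse 3) to 0.41 (without mouse 2) for *Kif14*. After quantile normalization again it was 0.0034 for *Cenpf*. The cause was not tested. The number of arrays limits the precision.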

Other observations

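Further gene groups that share names or functions with the mitotic genes had medians nearer to 0. Of 28 measured kinesin motors and light chains of intracellular transport, 7 fell and 2 rose (25% lower, as among all named genes). Their median log2 fold change was -0.14. With the mouse as a block 3 fell and 1 rose. *Kifc3*, a minus-end motor, read 7.07, 7.39 and 7.14 under hypoxia, against 8.54, 8.72 and 8.69 under normoxia (log2 fold change -1.45 ± 0.14 SE, adjusted p = 0.000832), and its groups did not overlap. *Kif3b* and *Kifap3*, subunits of the motor of ciliary transport, fell by 0.85 and 0.79, and *Kif26a* and *Kif1a* rose by 0.76 and 0.65. Among 11 other Polo and NIMA kinases 2 fell and 1 rose (18.2% and 9.09%, beside 25% and 13.9% of named genes). *Plk3*, a Polo kinase of stress responses, read 9.71, 9.51 and 9.52 under hypoxia, against 7.63, 7.36 and 7.37 under normoxia (log2 fold change 2.13 ± 0.14 SE, adjusted p = 0.000303), opposite in order to *Plk1*. For *Plk1* that order is fixed by the bound of the table. *Plk2* read 9.76, 9.61 and 9.75 under hypoxia, against 10.50, 10.32 and 10.36 under normoxia (log2 fold change -0.68 ± 0.13 SE, adjusted p = 0.00639), and *Nek4* fell by 0.74.

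Of 14 measured subunits and partners of the anaphase-promoting complex, 4 fell and 0 rose (28.6% lower, close to the 25% of named genes), with a median of -0.21. With the mouse as a block 3 fell, or 21.4% beside 20.1% of all rows. *Anapc2*, *Anapc4* and *Cdc23* fell by 0.88, 1.14 and 1.09, and *Fzr1*, the activator that follows *Cdc20* at mitotic exit, by 0.45. Of 10 genes for cohesin, which holds sister chromatids together, and its loading and release factors, 5 fell and 0 rose (50% lower, beside 25% of named genes), with a median of -0.35. With the mouse as a block 2 of the 10 fell, a share of 20% beside 20.1% of all rows. *Pds5b*, a regulator of cohesin release, and *Nipbl*, the cohesin loader, fell by 1.34 and 1.00 and kept their calls with the block, whereas *Stag1*, *Stag2* and *Wapl* did not.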
